A study of Homo sapiens with 10 samples.

Results

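The activin and inhibin axis was followed here through 9 genes. INHBA and INHBB encode the inhibin β subunits, FST, FSTL3 and FSTL1 encode follistatin and its relatives, ACVR2A and ACVR2B encode type II receptors, and ACVR1 and ACVR1B encode type I receptors. The genes were picked by symbol from the 36687 genes of the deposited count matrix, and all 9 passed the filter on low counts that left 15727 genes for testing. INHBB was the reason for the choice, because its level went down at 6 h and up at 48 h of dasatinib, so its values are given as a description without a test. The other 8 genes were tested in the fit across all 15727 genes.

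Activins are dimers of inhibin β subunits. The INHBA product forms activin A and the INHBB product forms activin B, while pairing of a β subunit with the α subunit encoded by INHA gives an inhibin, which opposes activin. An activin binds ACVR2A or ACVR2B, which then activates a type I receptor, chiefly ACVR1B, and the type I receptor phosphorylates SMAD2 and SMAD3. ACVR1 is a type I receptor best known for passing bone morphogenetic protein (BMP) signals to SMAD1 and SMAD5. Follistatin and FSTL3 bind activins outside the cell and keep them from their receptors, whereas FSTL1 shares a follistatin domain but is not a classical activin trap. Activin A is known to slow the growth of many epithelial cells.

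The cells were MDA-MB-231, a triple-negative breast cancer line of the basal B class, labelled wild type, and RNA was sequenced after 0, 6, 12, 24 and 48 h with dasatinib, an inhibitor of SRC family and ABL kinases. Each time had 2 libraries labelled as biological replicates, 10 in all, and all came from the same line. The 0 h libraries carried Sham in their titles while their treatment field named the drug. The study describes its 0 h cells as untreated controls. No untreated cells of 6, 12, 24 or 48 h were analysed here, so the effect of the drug cannot be told apart from that of time in culture in any comparison with 0 h.

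The libraries held between 40942913 and 49133774 counts assigned to genes. The first 12 h library stood apart, since its highest correlation with any other library was 0.955 against 0.983 to 0.987 for the other 9, and mitochondrial transcripts took 7.94% of its counts against 4.91% to 7.24% elsewhere. Some results are also given without it, but not all that shift when it is left out. All 8 basal B markers checked reached at least 1 TPM (transcripts-per-million) in every library, with VIM at 633 to 913 TPM. Their sum went from between 5860 and 5996 TPM at 0 h to between 4773 and 4947 TPM at 48 h. Of 8 luminal markers, 4 stayed under 1 TPM in every library, ESR1, PGR and CDH1 among them, and GATA3, FOXA1, SPDEF and EPCAM did not. The summed luminal markers moved with time, from 40.6 to 44.1 TPM at 0 h to between 123.5 and 125.4 TPM at 48 h, and those of 10 genes of other cell types (9 of them under 1 TPM in every library, with CD3E at 0) moved from between 0.809 and 1.26 TPM to between 3.57 and 4.28 TPM. Single genes carried most of the rise in the luminal and other-cell sums. SPDEF went from a mean of 16.1 TPM at 0 h to 93.2 TPM at 48 h and PECAM1 from 0.637 to 3.45 TPM, while GATA3 went from 11.7 to 9.68 TPM. The part of any of these shifts in the results given here was not tested. In bulk RNA, a smaller share of cells with a transcript and less transcript in each cell cannot be told apart.

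The promoters of the 3 genes with the most contrasting courses are shown, INHBB (down, then up), INHBA (level at the end) and FST (lower throughout). Each run is the RefSeq sequence of 250 bases before the start on GRCh38.p14, read 5′ to 3′ on the coding strand, and capitals mark matches on either strand to 5 short motifs, CAGAC (SMAD), TGANTCA (AP-1), GGAATG (TEAD), CCGGAAG (ETS) and GGGCGG (GC box).
INHBB, chr2:120345886-120346135, plus strand: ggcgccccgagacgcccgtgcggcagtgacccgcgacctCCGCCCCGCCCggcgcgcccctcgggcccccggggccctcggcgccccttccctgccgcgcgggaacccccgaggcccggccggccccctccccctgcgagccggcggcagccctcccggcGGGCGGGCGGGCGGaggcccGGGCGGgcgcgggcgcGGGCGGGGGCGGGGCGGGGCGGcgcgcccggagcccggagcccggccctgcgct
INHBA, chr7:41703091-41703340, minus strand: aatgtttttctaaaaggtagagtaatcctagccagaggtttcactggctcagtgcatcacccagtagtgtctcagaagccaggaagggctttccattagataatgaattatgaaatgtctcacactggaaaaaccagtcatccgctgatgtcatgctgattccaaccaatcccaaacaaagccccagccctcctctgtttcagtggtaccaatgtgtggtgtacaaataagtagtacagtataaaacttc
FST, chr5:53480379-53480628, plus strand: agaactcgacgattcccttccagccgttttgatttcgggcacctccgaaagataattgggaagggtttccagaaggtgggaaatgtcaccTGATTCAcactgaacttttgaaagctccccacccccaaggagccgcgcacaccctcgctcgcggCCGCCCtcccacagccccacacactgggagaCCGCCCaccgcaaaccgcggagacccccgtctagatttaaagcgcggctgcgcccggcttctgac
The INHBB window was almost entirely G and C (89.6%) with 46 CpG dinucleotides, against a median of 11 CpG over 35116 promoters, and its capitals are 10 GC boxes that partly overlap. The INHBA window was 42.8% G and C with 1 CpG and held none of the motifs. The FST window had 20 CpG, 2 GC boxes and 1 match to the loose AP-1 pattern TGANTCA, with the letters TGATTCA, beginning 160 bases before the start. Among all promoter windows, 42.6% held a GC box, 6.57% the AP-1 motif, 38.0% the SMAD motif, 11.9% the TEAD motif and 8.52% the ETS motif. A match is a run of letters and not evidence of binding, and these RefSeq starts need not be the outermost starts of the annotation given next.

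In the GENCODE v44 annotation of GRCh38, INHBB lies on the plus strand of chromosome 2 from 120346136 to 120351803, INHBA on the minus strand of chromosome 7 from 41667168 to 41705834, and FST on the plus strand of chromosome 5 from 53480626 to 53487134. FSTL3 lies on chromosome 19 from 676392 to 683392 (plus strand) and FSTL1 on chromosome 3 from 120392293 to 120451016 (minus strand). The receptor genes ACVR1 (157736251 to 157876330, minus strand) and ACVR2A (147844517 to 147930826, plus strand) are both on chromosome 2, ACVR1B is on chromosome 12 from 51951699 to 51997078 (plus strand), and ACVR2B is on chromosome 3 from 38453890 to 38493142 (plus strand). All 9 are protein-coding. The strand setting of the counting was not given in the sources used here. INHBA shares 2.99% of its exon bases with its antisense neighbour INHBA-AS1, FSTL1 shares 3.36% with BTNL12P and ACVR2A shares 6.68% with ORC4. A few of their reads could thus belong to the neighbour.

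Over the 48 h, the INHBB transcript reached 5.81 times its starting level while 3 follistatin family transcripts fell and the receptor transcripts ACVR1 and ACVR2A rose. INHBA, the other β subunit, ended near where it began (log2 fold change 0.13, adjusted p = 0.751 in edgeR). In edgeR with all 10 libraries, FST was the only member called at 6 h and the only one called at all 4 times. DESeq2 called INHBA lower at 6 h as well. Calls were made with edgeR's quasi-likelihood test and Benjamini-Hochberg adjustment over all genes.

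Of the 8 tested genes, only FST was called at 6 h, as lower, where 2.73% of all 15727 genes were called (1.24% higher and 1.49% lower). By 12 h FST and FSTL3 were called lower, 2 of 8, against a background of 7.15% of genes (3.93% higher and 3.22% lower). The same FST and FSTL3 were the calls of 24 h, 2 of 8 where 20.0% of genes were called (9.73% higher and 10.2% lower), a share near that of all genes. By 48 h, 5 of 8 were called against 32.3% of genes (16.0% higher and 16.3% lower). These were FST, FSTL1 and FSTL3, lower, and ACVR1 and ACVR2A, higher.

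**Figure D1:**
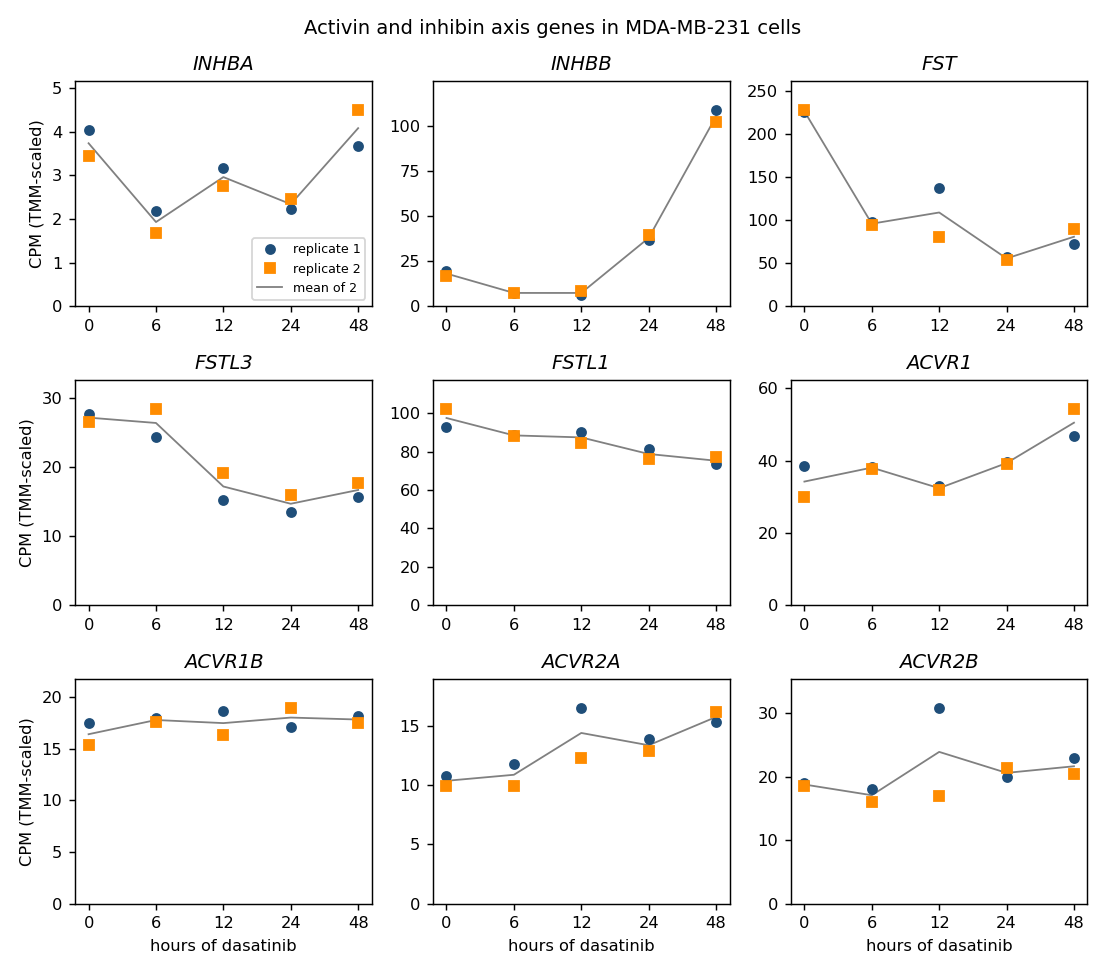
Counts-per-million (CPM, scaled by TMM) of the 9 genes in each of the 10 libraries against hours with dasatinib (times evenly spaced, not to scale), with circles for the first and squares for the second library of a time and the line joining their means. INHBB climbs to between 102 and 108 CPM at 48 h, FST drops from 225 and 228 CPM at 0 h to 53.6 and 57.5 CPM at 24 h, and ACVR1B stays between 15.4 and 19.0 CPM.

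INHBB, the β subunit of activin B, stood at 19.3 and 17.0 counts-per-million (CPM, with library sizes scaled by edgeR's TMM factors) in the 0 h libraries. It was at 7.39 CPM in both 6 h libraries and at 6.23 and 8.52 CPM in the 12 h libraries. By 24 h it stood at 36.5 and 39.2 CPM, and at 48 h at 108 and 102 CPM. The 0 h libraries lay above all 4 libraries of 6 and 12 h and below all 4 of 24 and 48 h, with no overlap on either side. The log2 fold changes against 0 h were −1.29 for both 6 and 12 h, 1.06 for 24 h and 2.54 for 48 h. From 6 to 48 h the difference was 3.83 on the log2 scale, and from 24 to 48 h it was 1.47. These values chose the gene and carry no test. In the order of mean levels, 48 h came first, then 24 h, 0 h and last 6 and 12 h, and only those last times overlapped. Over the alternative settings the 6 h value ran from −1.39 to −1.20 and the 12 h value from −1.545 to −1.08. The 24 h value ran from 0.96 to 1.16 and the 48 h value from 2.44 to 2.63. These ranges restate the values that chose the gene and lend the choice no support.

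INHBA, the β subunit of activin A, was scarce, with 169 and 150 counts in the 0 h libraries, 94 and 75 at 6 h and 180 and 198 at 48 h. In CPM it went from 4.03 and 3.44 at the start down to 2.18 and 1.68 at 6 h, stood at 3.16 and 2.76 in the 12 h libraries and at 2.23 and 2.45 in the 24 h libraries, and ended at 3.68 and 4.49. The 6, 12 and 24 h libraries all lay below the 0 h libraries, and the 48 h libraries overlapped with them. The log2 fold change at 6 h was −0.95 ± 0.267 (SE), with an edgeR adjusted p of 0.105 that missed the threshold of 0.05. DESeq2 on all 10 libraries called it lower, as did edgeR when either 12 h library or the whole 12 h group was left out. So did edgeR with the 6 and 0 h libraries fitted alone. Over all settings the adjusted p ran from 0.0137 to 0.603. The 24 h log2 fold change was −0.67 (edgeR adjusted p = 0.104), and INHBA was called lower at 24 h without the whole 12 h group. From 6 to 48 h INHBA rose by 1.08 ± 0.266 on the log2 scale (edgeR adjusted p = 0.0109). That call was lost without the second 6 h library or without the second 48 h library, and over all settings its adjusted p in edgeR or DESeq2 ran from 0.00146 to 0.108. Both β subunits thus had higher values at 48 h than at 6 h, with INHBA back in its starting range and INHBB above it.

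FST encodes follistatin, the secreted trap for activins, and was the most abundant member at the start. Its libraries held 225 and 228 CPM at 0 h, 97.6 and 94.3 CPM at 6 h, and 137 and 80.6 CPM at 12 h. At 24 h they held 57.5 and 53.6 CPM, and at 48 h 72.1 and 89.4 CPM. All 8 treated libraries lay below both 0 h libraries, with the lowest level at 24 h and a partial return at 48 h. FST fell by 1.24 on the log2 scale at 6 h (SE 0.210, edgeR adjusted p = 0.0128), by 1.06 at 12 h (SE 0.209, edgeR adjusted p = 0.0170), by 2.03 at 24 h (SE 0.215, edgeR adjusted p = 0.000251) and by 1.49 at 48 h (SE 0.211, edgeR adjusted p = 0.000488). The 12 h libraries differed from each other, and without the first of them the 12 h value was −1.48. The 24 and 48 h calls held under all 16 other settings, with adjusted p of at most 0.00695 and 0.0103. The 6 h call was lost when any 1 of the 4 libraries compared was left out (adjusted p up to 0.155), and the 12 h call when either 0 h library was left out or the 12 and 0 h libraries were fitted alone (up to 0.334). From 24 to 48 h the log2 difference was 0.54 with an edgeR adjusted p of 0.230, and it passed the threshold when either 12 h library was left out.

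FSTL3 encodes a follistatin-like trap that, like follistatin, binds activins. It stood at 27.7 and 26.6 CPM at 0 h and at 24.4 and 28.4 CPM at 6 h, so these groups overlapped. It was at 15.3 and 19.1 CPM at 12 h, 13.5 and 15.9 CPM at 24 h, and 15.6 and 17.7 CPM at 48 h, with all 6 libraries under those of 0 and 6 h. FSTL3 fell by 0.66 on the log2 scale at 12 h (SE 0.163, edgeR adjusted p = 0.0394), by 0.89 at 24 h (SE 0.164, edgeR adjusted p = 0.00423) and by 0.70 at 48 h (SE 0.163, edgeR adjusted p = 0.00821). At 6 h the log2 fold change was −0.04 with an edgeR adjusted p of 0.939, and the drop between 6 and 48 h was itself called (−0.66 ± 0.163, edgeR adjusted p = 0.0108). FST was thus called lower from 6 h on and FSTL3 from 12 h on. The 24 h call was lost without the first 24 h library (adjusted p 0.0615) and the 48 h call without the first 0 h or the first 48 h library (up to 0.0864). The 12 h call was lost without any 1 of the 8 libraries of the other times or when the 12 and 0 h libraries were fitted alone (up to 0.380) and held without either 12 h library. The call between 6 and 48 h was lost without the second 6 h or the first 48 h library (up to 0.105).

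FSTL1, a secreted glycoprotein of the same family, had the smallest log2 fold change of the 3 at 12, 24 and 48 h, and FSTL3 had it at 6 h. It was at 92.9 and 102 CPM at 0 h, 88.8 and 88.2 CPM at 6 h, 90.5 and 84.4 CPM at 12 h, 81.4 and 76.2 CPM at 24 h, and 73.3 and 77.2 CPM at 48 h. Every treated library was below both 0 h libraries. Its 24 h log2 fold change of −0.31 ± 0.106 missed the threshold with all 10 libraries (edgeR adjusted p = 0.0674). It was called lower at 24 h with the 24 and 0 h libraries fitted alone and without the whole 12 h group. FSTL1 fell by 0.37 at 48 h (SE 0.106, edgeR adjusted p = 0.0214). The 48 h call was lost without any 1 library of 0 or 48 h and with no filter on low counts (adjusted p up to 0.160).

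**Figure D2:**
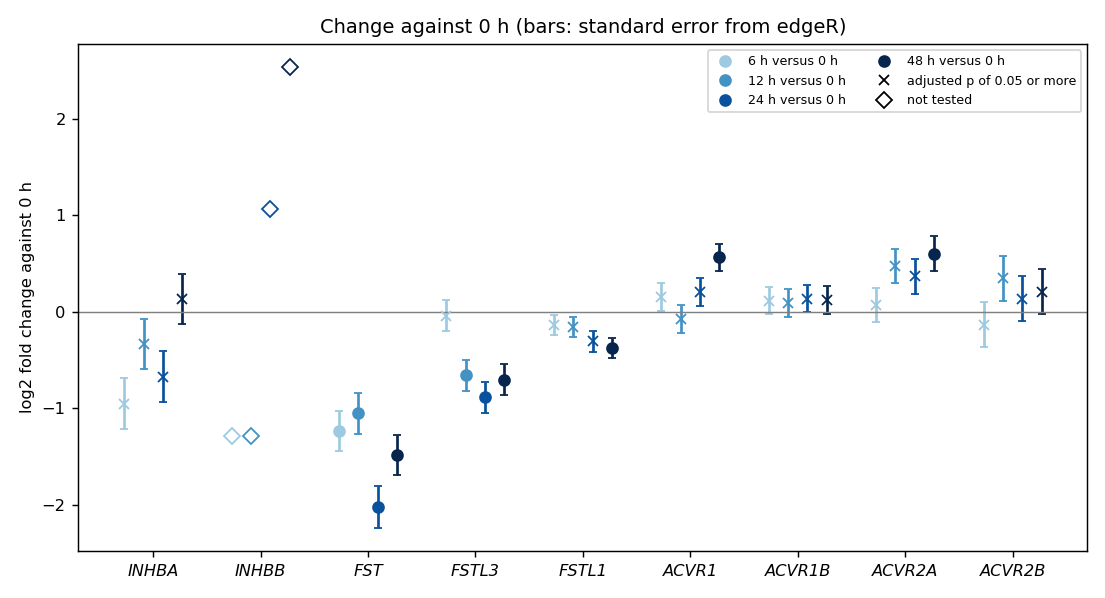
Fitted log2 fold changes of the 9 genes at 6, 12, 24 and 48 h against 0 h, with bars of 1 standard error for the 8 tested genes filled circles where the adjusted p was under 0.05 and crosses where it was not. The 3 follistatin family genes sit below zero at 48 h (−1.49 for FST, −0.70 for FSTL3 and −0.37 for FSTL1), ACVR1 and ACVR2A sit above it at 0.56 and 0.60, and INHBB, drawn as open diamonds without a test, goes from −1.29 to 2.54.

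With all 10 libraries, the only receptor calls against 0 h were those of 48 h. ACVR2A, a type II receptor that binds activins directly, was at 10.8 and 9.93 CPM at 0 h, 11.8 and 9.92 CPM at 6 h, 16.5 and 12.3 CPM at 12 h, 13.9 and 12.8 CPM at 24 h, and 15.3 and 16.1 CPM at 48 h. Its 12, 24 and 48 h libraries all lay above those of 0 and 6 h. The log2 fold changes were 0.47 at 12 h and 0.37 at 24 h (edgeR adjusted p = 0.139 and 0.187). Without the whole 12 h group, edgeR called it higher at 24 h. ACVR2A rose by 0.60 on the log2 scale at 48 h (SE 0.179, edgeR adjusted p = 0.0263) and by 0.53 between 6 and 48 h (SE 0.178, edgeR adjusted p = 0.0421). The 48 h call was lost without any 1 of the 4 libraries compared (adjusted p up to 0.155) and the call between 6 and 48 h without any 1 of the 8 libraries outside 12 h (up to 0.266).

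ACVR1, the BMP-type receptor, was at 38.6 and 29.9 CPM at 0 h, 38.4 and 37.8 CPM at 6 h, 32.9 and 31.8 CPM at 12 h, 39.6 and 39.0 CPM at 24 h, and 46.8 and 54.3 CPM at 48 h. Only the 48 and 24 h libraries lay above both 0 h libraries. It rose by 0.56 at 48 h (SE 0.144, edgeR adjusted p = 0.0135), a call lost without the second 0 h or the second 48 h library (adjusted p up to 0.143).

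ACVR2B, the other type II receptor, was at 18.9 and 18.6 CPM at 0 h, 18.1 and 16.0 CPM at 6 h, 30.8 and 17.0 CPM at 12 h, 19.9 and 21.3 CPM at 24 h, and 22.9 and 20.3 CPM at 48 h. Its spread was widest at 12 h, where the first library held the highest value of all 10, and the 12 h log2 fold change of 0.35 turned to −0.14 without it. At 48 h the log2 fold change was 0.21 (edgeR adjusted p = 0.543). ACVR1B, the chief type I receptor for activins, had overlapping groups at neighbouring ranks throughout, and its log2 fold changes against 0 h lay between 0.09 and 0.13 (edgeR adjusted p from 0.562 to 0.775). No change in ACVR1B was detected at this number of replicates.

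Between 6 and 48 h, 3 of the 8 tested members were called (INHBA and ACVR2A higher, FSTL3 lower). That share was near the 33.2% called over all genes. DESeq2 on all libraries, and edgeR with size factors of the DESeq2 type, called ACVR1 as well. Without the first 12 h library, the log2 differences were −0.25 for FST, −0.24 for FSTL1, 0.40 for ACVR1 and 0.34 for ACVR2B. These genes were called too when either 12 h library was left out. Without the whole 12 h group they were also called, 7 of 8 in a setting that called 54.2% of all genes. Between 24 and 48 h edgeR and DESeq2 each called 0 of the 8, where edgeR called 3.18% of all genes (1.89% higher and 1.28% lower), and INHBA (0.80), FST (0.54) and ACVR1 (0.36) were under 0.05 before adjustment. Those same 3 were called when either 12 h library was left out, and also without the whole 12 h group, where 22.8% of all genes were called. Over all settings the adjusted p ran from 0.0236 to 0.663 for INHBA, 7.88e-06 to 0.765 for FST and 0.00422 to 0.796 for ACVR1. FST was also called between 24 and 48 h with all 10 libraries and no filter on low counts.

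On a scale that divides by transcript length, so that genes can be set beside each other, the order of the levels changed over the treatment. At 0 h, FST had 278 and 285 TPM, ahead of FSTL1 (37.2 and 41.6 TPM), FSTL3 (31.0 and 30.2 TPM) and ACVR1 (29.2 and 23.0 TPM). INHBB followed at 20.4 and 18.2 TPM, then ACVR1B at 10.5 and 9.36 TPM, ACVR2A at 5.66 and 5.31 TPM and ACVR2B at 4.08 and 4.07 TPM. INHBA had the lowest level of the 9, at 1.65 and 1.43 TPM. At 48 h, INHBB stood at 119 and 117 TPM and FST at 92.3 and 119 TPM, so the activin B subunit and follistatin were then at like levels.

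The ratio of FST to INHBB in TPM was 13.6 and 15.6 in the 0 h libraries, 15.4 and 14.9 in those of 6 h and 25.7 and 11.0 in those of 12 h. It was 1.84 and 1.59 by 24 h and 0.775 and 1.02 by 48 h. The 24 and 48 h libraries were all below those of the first 3 times. Summed traps over summed β subunits (FST and FSTL3 over INHBA and INHBB) gave 14.0 and 16.0 for the 0 h libraries, 17.0 and 17.4 for 6 h, 23.6 and 11.9 for 12 h, 2.18 and 1.97 for 24 h, and 0.914 and 1.19 for 48 h. INHBB outnumbered INHBA in every library, by 12.3 and 12.7 times at 0 h, 5.09 and 7.98 times at 12 h, and 76.2 and 58.6 times at 48 h. The α subunit gene INHA, needed for any inhibin, had between 0 and 45 counts per library. These ratios include INHBB and so describe the choice of genes as well as the data. They are ratios of transcripts, and protein was not measured.

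**Figure D3:**
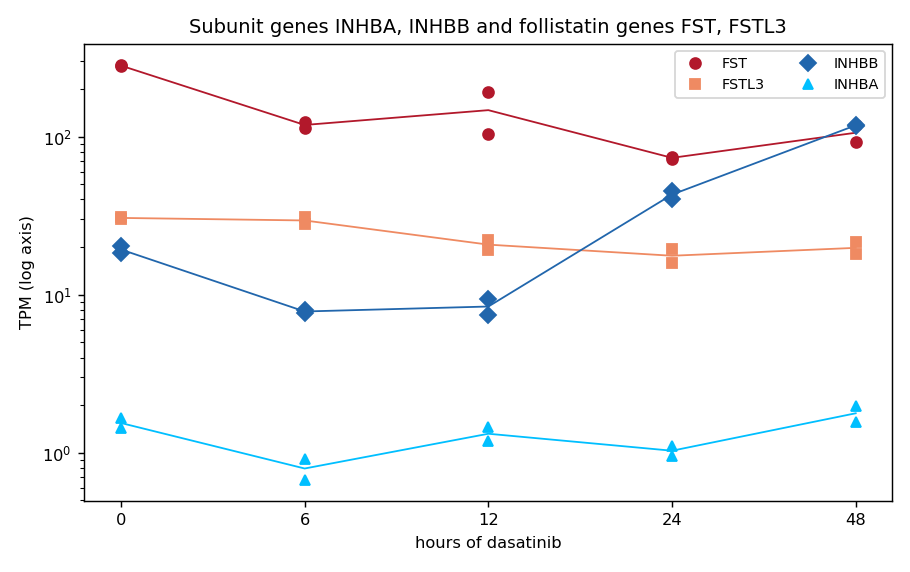
TPM on a log axis of INHBA, INHBB, FST and FSTL3 in the 10 libraries against hours with dasatinib (times evenly spaced), each point 1 library and each line through the means. The INHBB and FST lines are far apart at 0 h (20.4 and 18.2 against 278 and 285 TPM) and meet at 48 h (119 and 117 against 92.3 and 119 TPM), while INHBA stays at the bottom.

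The genes that shared the reversal of INHBB were looked up by the same values that chose it, so its own place among them is no finding. Among the 10982 genes whose average log2 CPM reached 2, 15 had a log2 fold change of −1 or lower at 6 h and of 1 or higher at 48 h. They were ABCA1, ADGRF1, BBS9, DEPP1, H2BC5, HMGA2-AS1, IFI44L, IFIH1, INHBB, KLRC2, MX1, MX2, OAS2, PPFIBP2 and SAMD9L. MX1, MX2, OAS2, IFIH1, IFI44L and SAMD9L are known as interferon-stimulated genes, and ABCA1 exports cholesterol.

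By the correlation of log2 CPM over the 10 libraries, the genes with the course most like that of INHBB among 10981 others were BNIP3 (r = 0.995), OASL (r = 0.992), DAB2 (r = 0.992), UBE2L6 (r = 0.991) and AIG1 (r = 0.990). Spearman's rho for these 5 lay between 0.915 and 0.988, and r without the first 12 h library between 0.990 and 0.994. Their changes were smaller. BNIP3, a mitochondrial protein of cell death and mitophagy, went from 190 and 199 CPM at 0 h to 355 and 359 CPM at 48 h, and UBE2L6, an enzyme that conjugates ISG15, from 47.3 and 46.3 CPM to 128 CPM in both libraries. OASL went from 52.9 and 53.5 to 95.5 and 85.4 CPM, DAB2, an endocytic adaptor, from 43.0 and 43.7 to 65.4 and 66.4 CPM, and AIG1 from 32.7 and 33.6 to 51.0 and 51.2 CPM. The 10 libraries share their time points, so such values describe a likeness in shape and carry no test.

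**Figure D4:**
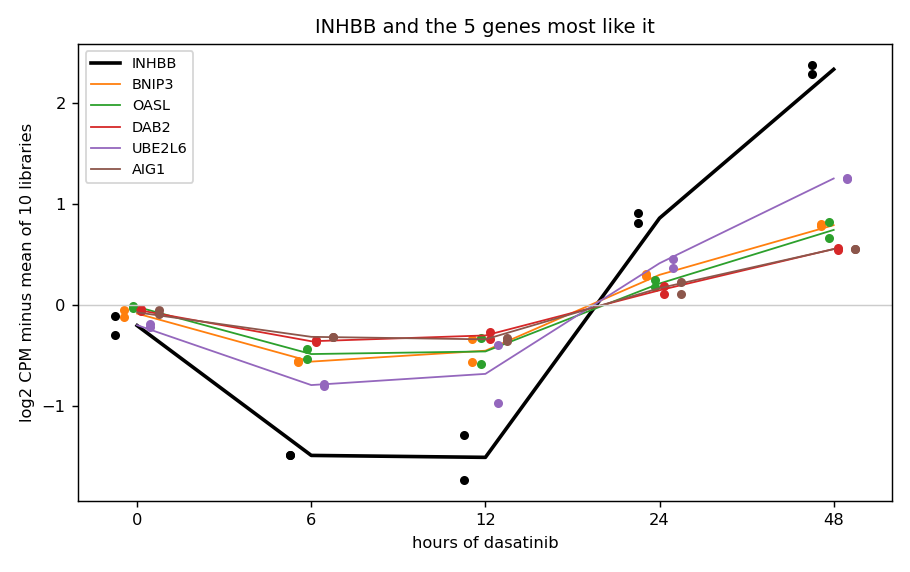
Log2 CPM of INHBB and of its 5 most alike genes, each minus its own mean over the 10 libraries, against hours with dasatinib (times evenly spaced), with points for the libraries and lines through the means. All 6 lines are lowest at 6 and 12 h and highest at 48 h, with correlations to INHBB of 0.990 to 0.995, and INHBB spans the widest range.

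The rest of the pathway was read from 6 gene lists. Calls lost with single libraries left out are detailed for the members only, and some list calls were lost in the same way. Among 9 other ligands, 5 passed the filter and 1 was called higher at 48 h with none lower, against 16.0% of all genes higher and 16.3% lower, and the list's median log2 fold change was 1.95 against 0.01 over all genes. The called gene was GDF15, a divergent stress-responsive ligand of the family, which went from 115 and 190 counts at 0 h to 2148 and 1913 at 48 h (log2 fold change 3.62 ± 0.561, edgeR adjusted p = 0.000825). Its 12 h libraries held 228 and 1111 counts. INHA and INHBE, both with very few reads, carried much of that median.

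Among 21 coreceptors, antagonists and processing enzymes, 13 passed the filter and 4 were called higher and 2 lower at 48 h, where 16.0% of all genes were higher and 16.3% lower. TGFBR3, the coreceptor betaglycan that helps inhibins bind, rose from 30.4 and 32.0 CPM to 66.6 and 67.0 CPM (log2 fold change 1.10 ± 0.174, edgeR adjusted p = 0.000941). NOG, the BMP antagonist noggin, fell from 12.2 and 12.8 CPM to 4.13 and 4.22 CPM (−1.59 ± 0.186, edgeR adjusted p = 0.000152) and was already lower at 6 h (−0.87, edgeR adjusted p = 0.0342). LEFTY1, an antagonist of nodal signals, had 1 and 0 counts at 0 h and 72 and 45 at 48 h. The convertase genes PCSK5 and PCSK6 were the other members called higher and TGFBR3L the other called lower.

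Of 8 related receptors, 7 passed the filter, and 3 were higher at 48 h and none lower (list median 0.83), beside 16.0% and 16.3% of all genes. TGFBR1 and TGFBR2, the TGF-β receptors, rose by 1.29 and 0.83 on the log2 scale (edgeR adjusted p = 0.000999 and 0.000271), and BMPR2, a type II receptor shared by BMPs and activins, by 0.69 (edgeR adjusted p = 0.0261). TGFBR1 was at 50.1 and 47.5 CPM at 0 h, 84.3 and 83.2 CPM at 6 h and 120.0 and 119 CPM at 48 h.

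All 20 SMADs and SMAD regulators passed the filter, 4 higher and 1 lower at 48 h (list median 0.08), so 5 of 20 were called where 32.3% of all genes were. SMAD2, SMAD3 and SMAD4, the transducers themselves, had log2 fold changes of 0.24, −0.13 and 0.18 at 48 h and were not called. PMEPA1, which retains SMAD2 and SMAD3 away from the receptor, was at 15.2 and 14.2 CPM at 0 h, 80.9 and 86.4 CPM at 6 h and 27.0 and 19.0 CPM at 48 h. It rose by 2.51 at 6 h (SE 0.173, edgeR adjusted p = 9.29e-05) and by 0.65 at 48 h (edgeR adjusted p = 0.0140). SMAD6 and SMAD7, the inhibitory SMADs, were higher by 0.74 and 0.76 at 48 h (edgeR adjusted p = 0.00169 and 0.0488), and TGIF1, a corepressor, by 0.82. The ubiquitin ligase gene NEDD4L fell by 1.34 at 6 h (edgeR adjusted p = 0.00529) and still lower than 0 h at 48 h (−0.91, edgeR adjusted p = 0.00423).

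Of 16 genes commonly read as SMAD2 and SMAD3 targets, 15 passed the filter, and 7 were higher and 3 lower at 48 h (list median 0.51), with 16.0% of all genes higher and 16.3% lower. CCN2, a matrix-associated growth factor that is also a target of YAP and TEAD, was at 381 and 358 CPM at 0 h, 92.1 and 88.5 CPM at 6 h and 264 and 265 CPM at 48 h (−0.48 ± 0.164 at 48 h, edgeR adjusted p = 0.0463). BHLHE40, NEDD9 and LMCD1 rose by 1.57, 1.34 and 1.06 on the log2 scale at 48 h (edgeR adjusted p of 4.87e-05, 0.00019 and 0.000962). The targets thus moved in both directions.

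Of 10 SMAD1 and SMAD5 targets, 9 passed the filter, and 3 were higher and 1 lower at 48 h (list median 0.37), again beside 16.0% and 16.3% of all genes. ID1, the classical BMP target, went from 199 and 176 CPM at 0 h to 278 and 253 CPM at 6 h and 86.9 and 75.9 CPM at 48 h (−1.20 ± 0.254 at 48 h, edgeR adjusted p = 0.00508), while ID4 rose by 0.88 (edgeR adjusted p = 0.000193) and ATOH8 by 0.60 (edgeR adjusted p = 0.00728). SMAD6, SMAD7, SMAD9, SKIL, PMEPA1, TGIF1 and BAMBI each stand in more than 1 list. Without the first 12 h library the SMAD2 and SMAD3 targets had 7 higher and 3 lower at 6 h, in place of 2 and 1, while the share of all genes called at 6 h went from 2.73% to 19.4%. At 48 h they had 9 higher and 4 lower, where that setting called 50.5% of all genes. Without the first 12 h library, more of the SMADs and regulators and of the coreceptors, antagonists and processing enzymes were called at 48 h. So were more of all genes.

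**Figure D5:**
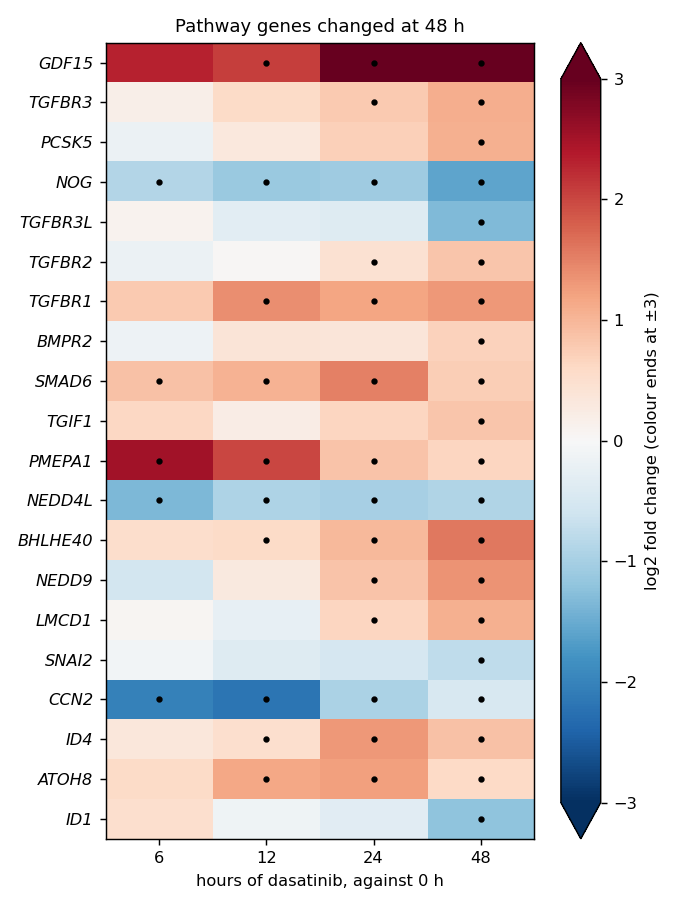
Log2 fold changes against 0 h at 6, 12, 24 and 48 h (columns) of the list genes with the smallest adjusted p at 48 h, at most 3 called genes per list and direction (rows), in colours that end at −3 and 3, with a black dot where the adjusted p was under 0.05. LEFTY1, with 1 and 0 counts at 0 h, and 1 gene not reported here are left out. PMEPA1 is highest at 6 h (2.51), GDF15 reaches 3.62 at 48 h and the SMAD2 and SMAD3 targets show both colours, with CCN2 at −0.48 and BHLHE40 at 1.57 at 48 h.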

How the data were processed

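cDNA libraries of purified total RNA were sequenced by the authors. Per the labels and the methods of the study, reads were trimmed with Trim Galore, aligned with STAR 2.5.2b to GRCh38 and counted per gene with featureCounts. The authors deposited raw counts per gene, used in every test, and TPM per gene, used only to compare levels between genes. The strand setting and annotation release were not given in the sources used here.

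The 5 groups came from the time labels, with 2 libraries each of 40942913 to 49133774 counts. A robust quasi-likelihood model of edgeR 4.0.16 (R 4.3.3) was fitted to all 10 libraries with TMM scaling after its filter on low counts (15727 of 36687 genes), with Benjamini-Hochberg adjustment over all genes and a threshold of 0.05. Each SE is the log2 fold change divided by the square root of its F. The members and lists were chosen with earlier results of these data known, and the named list genes are the 3 with the smallest adjusted p at 48 h per list and direction, to which others were added after their values were seen. Replicates are biological per the labels, but p-values measure only the spread between these libraries. The alternatives were DESeq2 1.42.0, its size factors, no filter, a replicate block, the groups compared alone, a threshold of 0.01, each library left out and, chosen after seeing the data, the 12 h group left out. Likeness to INHBB was the correlation of log2 CPM with a prior count of 2. Genome coordinates come from GENCODE v44 and promoters from RefSeq. Some genes of the fixed lists are counted but their values are not reported here.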

Additional observations from a re-analysis of the deposited data

Results flagged for a closer look

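Of the 8 tested genes, 3 had effects at 6 and 48 h that differed in edgeR's test of the difference itself, over 2 libraries at each time. That share was near the 33.2% called over all genes. Each of the 3 calls was lost when some single libraries were left out. The 48 h effect minus the 6 h effect was 1.08 on the log2 scale for INHBA (both 48 h libraries above both 6 h libraries), −0.66 for FSTL3 (both below) and 0.53 for ACVR2A (both above). For INHBB every 6 h library lay below and every 48 h library above the 0 h libraries, a difference of 3.83 that was the reason for choosing the gene and was not tested.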

How the results depend on the processing

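Groups of 2 libraries and a spread shared over times set the limits. Leaving out a 12 h library changed how many genes passed in every comparison and moved fold changes at 12 h, several of them across zero (given last). With each library left out in turn, the number of genes that edgeR called ran from 59 to 3205 (6 h), 169 to 7559 (12 h), 1216 to 6665 (24 h) and 2913 to 8364 (48 h) against 0 h, from 2891 to 8363 between 6 and 48 h, and from 17 to 3538 between 24 and 48 h. The members called then ranged from 0 to 2, 0 to 4, 1 to 5, 2 to 5, 0 to 7 and 0 to 3 in the same order.

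Without the 12 h group, an alternative chosen after seeing the data, edgeR called 3210 genes and 2 members at 6 h, 6692 and 5 at 24 h, 8395 genes at 48 h, 8388 and 7 between 6 and 48 h, and 3523 and 3 between 24 and 48 h. With only the groups compared, it called 2966 and 2 at 6 h, 0 and 0 at 12 h (1615 genes at an unadjusted p under 0.05, and 1966 by DESeq2), 6485 genes at 24 h, 8158 at 48 h, 8416 and 7 between 6 and 48 h, and 3805 and 3 between 24 and 48 h. With no filter it called 910 genes at 6 h, 2336 at 12 h, and 1158 and 1 member (FST) between 24 and 48 h, where the share of calls that were higher was 47.2% in place of 59.6%. DESeq2 called 912 and 2 at 6 h, 1966 at 12 h and 1078 between 24 and 48 h. At a threshold of 0.01 edgeR called 158 and 0 at 6 h, 328 and 0 at 12 h, 1644 genes at 24 h, 3044 and 2 at 48 h, 3173 and 0 between 6 and 48 h, and 136 genes between 24 and 48 h. Apart from these constructions, the cause of each shift was not tested.

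The differences between the 2 libraries of a time correlated by −0.04 to 0.10 over 10 pairs of groups, with 1 above 0.1. Whether libraries with the same replicate number shared a batch was not tested. With the replicate number as a block, edgeR called 383, 1030, 3064, 5051, 5217 and 461 genes in the 6 comparisons. It called 1, 2, 2, 5, 3 and 0 members, as without the block.

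No checked gene that edgeR called with all 10 libraries changed sign. With single libraries left out, these log2 fold changes, uncalled with all 10 libraries, crossed zero. For 6 h, PCSK5 ran from −0.482 to 0.185, SNAI2 from −0.364 to 0.261, ACVR1 from −0.0261 to 0.349, FSTL3 from −0.1545 to 0.0726, ACVR2A from −0.0525 to 0.1903 and LMCD1 from −0.0462 to 0.158. For 12 h, ACVR1 ran from −0.268 to 0.107, ACVR1B from −0.0136 to 0.176, ACVR2B from −0.138 to 0.708, TGFBR2 from −0.062 to 0.11, BMPR2 from −0.0422 to 0.704, ID1 from −0.663 to 0.259 and TGIF1 from −0.186 to 0.543. For 48 h, INHBA ran from −0.0257 to 0.262. Between 6 and 48 h, ACVR1B ran from −0.0279 to 0.0341 (−0.0048 with no filter) and ATOH8 from −0.0596 to 0.0956. Between 24 and 48 h, GDF15 ran from −0.0469 to 0.355, ACVR1B from −0.091 to 0.0615, ACVR2B from −0.0174 to 0.157 and PMEPA1 from −0.4815 to 0.0285.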
